A study of Mus musculus with 2 samples.

Results

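Naive-like CD8 T cells of brown adipose tissue were the CD45+ cells that carried the T cell receptor complex and CD8 but not CD4, together with at least 1 transcript of a gene that marks naive T cells. They were chosen on measured values: a barcode needed 200 or more detected genes, at most 10% of its unique molecular identifiers (UMIs, each standing for 1 captured transcript) from mitochondrial genes, 2 or more UMIs over Cd3d, Cd3e and Cd3g, 1 or more over Cd8a and Cd8b1, 1 or more over Ccr7, Lef1 and Dapl1, and none of Cd4, Cd79a or Csf1r. The rule found 203 of 4295 kept cells, 126 of 2279 in the control library and 77 of 2016 in the Adipo delta/delta library. The counts of the genes in the rule therefore describe the choice of cells and are given with no test.

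A naive CD8 T cell has left the thymus without yet meeting its antigen. It recirculates between blood and lymph nodes with the homing receptor CCR7, and the transcription factors TCF1 (Tcf7) and LEF1 hold it in a quiescent state in which it lives on signals from interleukin-7 and from self peptides on MHC molecules. After activation, or in the antigen-independent state called virtual memory, CD8 T cells lose part of this programme and gain chemokines, granzymes and other effector molecules. Fat depots hold macrophages and memory T cells, and naive cells can be carried in them by blood and lymphoid structures.

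The study asked how the immune cells of brown fat respond when adipocytes lose adipose triglyceride lipase (ATGL, gene Pnpla2), the enzyme that starts the breakdown of stored triglyceride. Both libraries came from male C57Bl/6 mice carrying AdipoQ-CreERT2 and ATGLfl/fl, labelled as 16 weeks old. The study describes its mice as younger and its controls as littermates, and the labels were followed here. The control mice received vehicle, and the Adipo delta/delta mice received tamoxifen at 10 mg/ml, each as 200 µL injected into the peritoneum every 2 days for 1 week and followed by 2 weeks of rest. The adiponectin promoter drives the recombinase in adipocytes, so the leukocytes measured here were not targeted and kept the gene. Living CD45+ cells were sorted from collagenase-digested tissue and captured with a droplet kit that reads the 3′ ends of transcripts.

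There was 1 library per condition, and how many mice each holds is not given in the sources used here. Condition and library therefore cannot be told apart, no test between the conditions was possible, and no value has a replicate check. Intervals are exact 95% intervals for counting error alone. Levels are UMIs of a gene per 1000000 UMIs of the cells named (CPM), a ratio is the Adipo delta/delta level divided by the control level, and no scaling by gene length was needed for the comparisons because each sets a gene against itself.

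The libraries held 2597 and 2381 barcodes with 11327187 and 12028844 UMIs. The naive-like CD8 T cells contributed 798202 and 719198 UMIs. A control member held a median of 5466 UMIs (range 685 to 17236) and 1374.5 detected genes, and an Adipo delta/delta member 8414 UMIs (range 520 to 40496) and 1930 genes. No control member and 5 Adipo delta/delta members exceeded 20000 UMIs. The median mitochondrial share was 2.95% and 3.47%. Gm42418, which overlaps a ribosomal RNA repeat, took 9.33% of the members' UMIs in the control and 4.00% in the Adipo delta/delta library, against 9.90% and 6.35% over all kept cells. The libraries shared 4 barcodes, none of them a member. No doublet caller was run here.

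The genes that chose the cells had the following levels. Lef1, the transcription factor at chr3:131110471-131224356 (plus strand, GRCm38), was carried by 98 of 126 control and 66 of 77 Adipo delta/delta members, at 457 and 366 CPM. Ccr7, the lymph node homing receptor at chr11:99144196-99155077 (minus strand), was carried by 90 and 48 members, at 251 and 188 CPM. Dapl1, a gene known as a marker of naive CD8 T cells at chr2:59484653-59505020 (plus strand), was carried by 67 and 49 members, at 477 and 484 CPM. All 3 genes were found in 44 control and 29 Adipo delta/delta members, Ccr7 with Lef1 in 30 and 14, and Lef1 alone in 17 and 11. Cd8b1, the beta chain of the CD8 coreceptor at chr6:71322788-71337494 (plus strand), stood at 846 and 1007 CPM, and Cd3d at 877 and 855 CPM. These positions are the whole annotated genes, and the counts do not place reads in single exons.

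Most members lay well inside the rule, and some stood at its edge. The median member had 6 UMIs over Ccr7, Lef1 and Dapl1 in the control and 7 in the Adipo delta/delta library. Just inside the limit, 20 and 10 members had exactly 1 such UMI, at medians of 4748 and 8532.5 UMIs in all. Just outside it, 18 and 29 cells met every other condition and had none, at medians of 4231.5 and 5538 UMIs. A further 80 and 36 cells failed only for want of a CD8 UMI, with medians of 3191.5 and 5570 UMIs, and 4 and 6 failed only through a Csf1r UMI. Free RNA can place a UMI in a cell that does not make it: among Csf1r-bearing phagocytes, which should lack these genes, 2 of 595 control cells (0.336%) and 9 of 673 Adipo delta/delta cells (1.34%) had at least 1 UMI of Ccr7, Lef1 or Dapl1, at median depths of 5620 and 5833 UMIs.

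**Figure D1:**
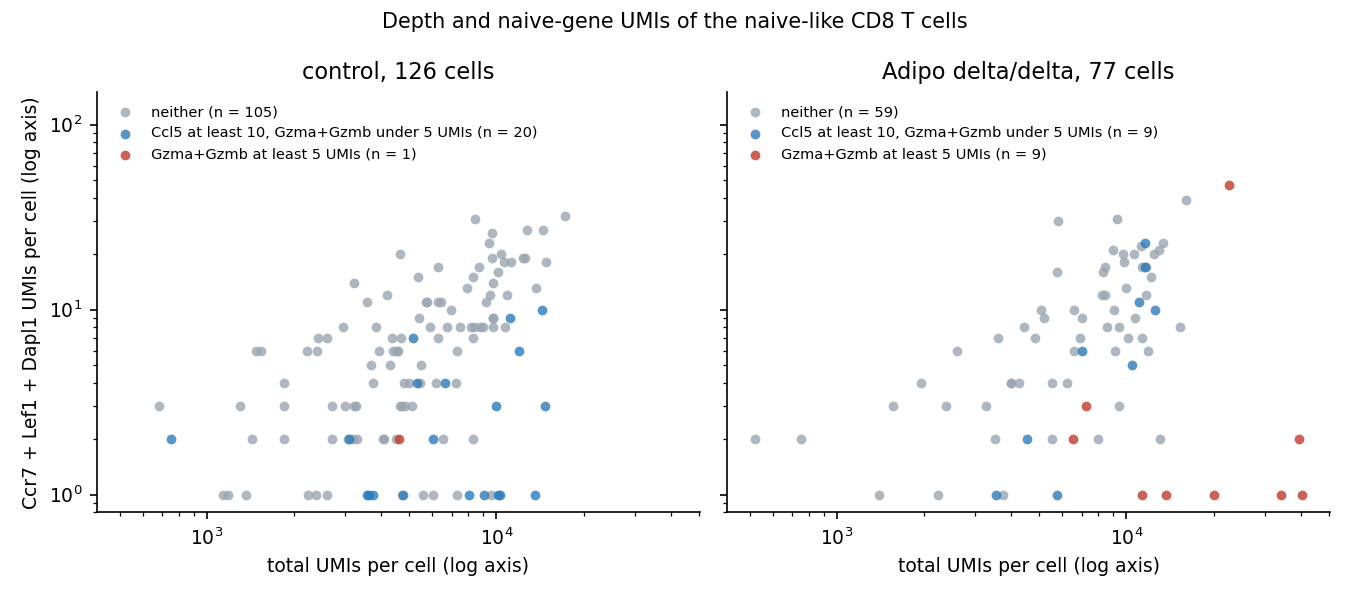
Each point is 1 naive-like CD8 T cell, placed by its total UMIs (horizontal, log scale) and its UMIs of Ccr7, Lef1 and Dapl1 (vertical, log scale), with a panel per library and a colour for granzyme-bearing, Ccl5-bearing and other members. The deepest Adipo delta/delta cells, up to 40496 UMIs, are granzyme-bearing, and 5 of those 9 cells have a single UMI of the 3 genes.

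Genes outside the rule gave the following check of the label. Tcf7, at chr11:52252371-52283014 (minus strand, GRCm38) and coding for TCF1, was carried by 81.7% of control and 80.5% of Adipo delta/delta members, against 0.168% and 0.149% of the phagocytes. It was also carried by 50% of control and 51.7% of Adipo delta/delta CD8 T cells that lacked the naive genes, and by 64.3% and 62.5% of CD4 T cells, and the difference between these shares was not tested. With every cell thinned to 1500 UMIs, which kept 118 and 74 members, the shares were 37.3% and 40.5%. Il7r, the interleukin-7 receptor, was carried by 66.7% and 76.6% of members and by 0.672% and 7.88% of phagocytes. It was also in 44.4% and 3.45% of the CD8 T cells that lacked the naive genes, and in 39.3% and 37.5% of CD4 T cells. Satb1, a chromatin organiser of T cells, was carried by 73.0% and 67.5% of members and by 3.87% and 3.12% of phagocytes. In the same other T cells the Satb1 shares were 27.8% and 10.3% for CD8, and 53.6% and 30% for CD4.

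The same genes set the members apart from the CD8 T cells that lacked Ccr7, Lef1 and Dapl1, of which there were 18 in the control and 29 in the Adipo delta/delta library. Satb1 stood at 343 CPM in control members and 67.4 CPM in those 18 cells, 5.10-fold higher (2.31 to 14.0), and in the Adipo delta/delta library at 266 against 14.5 CPM, 18.3-fold higher (6.18 to 89.8). Tcf7 was 2.18-fold (1.32 to 3.85) and 3.28-fold (2.10 to 5.40) higher, and S1pr1, the receptor with which T cells leave lymph nodes, 5.19-fold (1.99 to 19.2) and 4.00-fold (1.96 to 9.49) higher. Of 1566 genes with at least 50 UMIs in each library, 19 were past 2-fold higher and 39 past 2-fold lower in members in both libraries, and 1097 had the same direction in both.

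Genes lower in members included the following. Ccl5, a chemokine of memory and effector cells, had 0.139 (0.129 to 0.151) and 0.302 (0.286 to 0.319) of its level in the CD8 T cells without naive genes. S100a4 had 0.0528 (0.0321 to 0.0849) and 0.130 (0.113 to 0.149), and Id2, a regulator of effector differentiation, 0.220 (0.150 to 0.328) and 0.259 (0.215 to 0.312). Gzmb, the protease granzyme B, had 1 UMI among the control members against 72 in the 18 other CD8 cells, and 251 among the Adipo delta/delta members against 213 in the 29 other cells, a ratio of 0.340 (0.282 to 0.410). The 3 naive genes of the rule are left out of this comparison because they define both groups.

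Against CD4 T cells, of which 56 and 40 were found, the naive genes were closer. Tcf7 stood at 0.822 (0.652 to 1.04) of the CD4 level in the control and 1.26 (0.95 to 1.70) in the Adipo delta/delta library, both intervals covering equal levels. Genes of the CD8 lineage were higher in both libraries: Klrd1, part of an inhibitory receptor, had 172 UMIs against 0 in the control and was 4.84-fold (2.56 to 10.3) higher in the Adipo delta/delta library, and Runx3, the transcription factor of CD8 lineage choice, was 2.40-fold (1.38 to 4.52) and 3.87-fold (2.15 to 7.67) higher. Nkg7, a granule protein, was 5.02-fold (3.39 to 7.76) and 1.92-fold (1.58 to 2.36) higher. Of its 681 UMIs in Adipo delta/delta members, 358 came from 9 cells rich in Gzma and Gzmb, described below. In the Adipo delta/delta members poor in Gzma, Gzmb and Ccl5 it stood at 581 CPM, beside 493 CPM in CD4 T cells. The comparisons with other T cells include those 9 cells and were not repeated without them. Of 1695 genes, 12 were past 2-fold higher and 14 past 2-fold lower in both libraries.

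**Figure D2:**
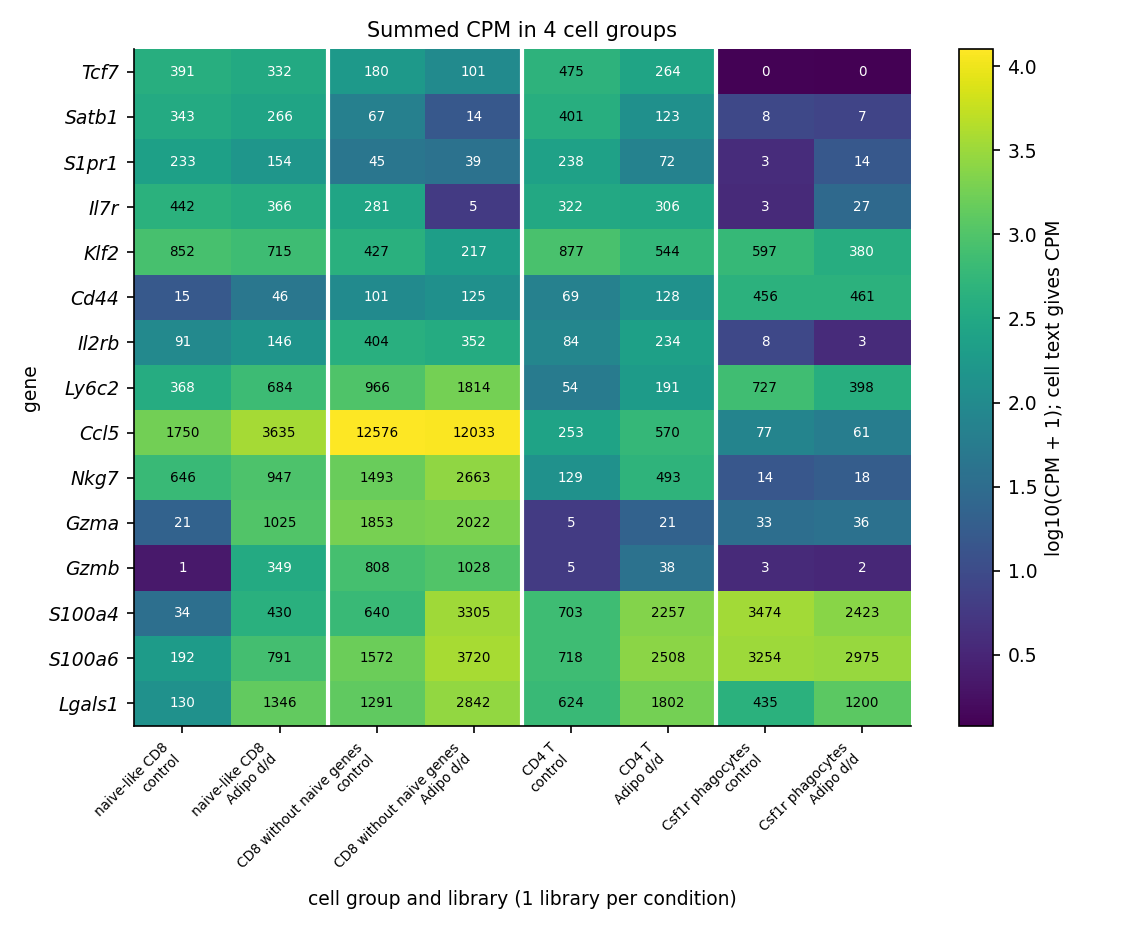
Levels of 15 genes (rows) in CPM, shown as colour on a log scale, in naive-like CD8 T cells, CD8 T cells without naive genes, CD4 T cells and Csf1r-bearing phagocytes (columns) of each library. Tcf7, Satb1 and S1pr1 are higher in both naive-like columns than in the CD8 T cells without naive genes, and Gzmb is at 1.25 CPM in control members and 349 CPM in Adipo delta/delta members.

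The members made up 5.53% of control cells (4.63 to 6.55) and 3.82% of Adipo delta/delta cells (3.03 to 4.75), a ratio of 0.691 (0.513 to 0.925). That ratio depended on the denominator. Among cells without Csf1r the shares were 9.06% and 7.51%, a ratio of 0.829 (0.616 to 1.11), and among T cells, 343 and 243 in number, they were 36.7% and 31.7%, a ratio of 0.863 (0.641 to 1.15). With cells thinned to 1500 UMIs the shares of all cells were 3.68% and 2.85%, a ratio of 0.775 (0.520 to 1.14). Of these 4 ratios only the first had an interval below 1. Over kept cells with at least 500 detected genes it was 0.720 (0.532 to 0.970). With 2 or more naive-gene UMIs it was 0.715 (0.518 to 0.979), and with 3 or more CD3 UMIs 0.716 (0.530 to 0.962). At mitochondrial limits of 5% and 2% the intervals reached past 1, at 0.738 (0.538 to 1.01) and 0.525 (0.227 to 1.11). The sort and the digestion of each preparation also set what share each type takes.

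The members were not of 1 kind. A member with 5 or more UMIs of Gzma and Gzmb together, which code for granzymes A and B, was called granzyme-bearing, and a member with 10 or more UMIs of Ccl5 but fewer UMIs of those genes was called Ccl5-bearing, limits set after the values were seen. There was 1 granzyme-bearing member in the control (0.794%, 0.0201 to 4.34) and 9 in the Adipo delta/delta library (11.7%, 5.49 to 21.0). There were 20 Ccl5-bearing members (15.9%, 9.97 to 23.4) and 9 (11.7%, 5.49 to 21.0). The remaining 105 (83.3%) and 59 members (76.6%) had neither, and their median depth was 5389 and 8224 UMIs.

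The 9 granzyme-bearing Adipo delta/delta cells held 195396 UMIs, 27.2% of all UMIs of that library's members, at a median of 20005 UMIs and 3789 genes. Of these cells 5 had been admitted by exactly 1 UMI of the naive genes, none carried Ccr7, 3 carried Tcf7, and 8 carried Lef1. One-by-one, from the shallowest to the deepest, they held 37, 24, 8, 36, 307, 0, 299, 0 and 19 UMIs of Gzma (granzyme A), and 21, 1, 0, 0, 37, 8, 109, 67 and 8 of Gzmb. Every one of them carried Ccl5, between 36 and 606 UMIs, and Lgals1, the galectin of activated T cells, between 17 and 221. The expression of naive genes in them was low: Satb1 stood at 10.2 CPM, Il7r at 15.4 CPM and Klf2 at 292 CPM, against 377, 473 and 906 CPM in the Adipo delta/delta members with neither. The name naive-like did not suit these 9 cells by the genes outside the rule, and they are called granzyme-bearing here.

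The 4 deepest granzyme-bearing cells also carried genes of DNA replication and mitosis. The cell cycle list summed to 28, 115, 192 and 295 UMIs in the cells of 22612, 34122, 39456 and 40496 UMIs, and to between 0 and 10 in the other 5. In the deepest cell Hist1h1b, a histone H1 gene used in S phase, had 67 UMIs and Mki67, the proliferation marker Ki-67, had 23. One of the 4, the cell of 22612 UMIs, carried 38 UMIs of Dapl1 and 9 of Lef1. C1q genes of macrophages reached 1 UMI at most per gene in the 9 cells and Ighm of B cells reached 8. Whether any of them is a doublet of 2 T cells was not tested.

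Granzyme-bearing cells were not particular to the members. By the same limit they were 5 of 18 CD8 T cells without naive genes in the control and 13 of 29 in the Adipo delta/delta library, and 0 of 56 and 1 of 40 CD4 T cells.

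The Ccl5-bearing members kept part of the naive programme in both libraries. Tcf7 stood at 378 CPM in the 20 control and 436 CPM in the 9 Adipo delta/delta cells, and Il7r at 455 and 628 CPM. Ccr9, a gut and thymus homing receptor, and Igfbp4 were at 0 in both. Ly6c2, a surface protein of memory CD8 T cells, stood at 1026 and 1256 CPM, and Il2rb, the receptor chain shared by interleukin-2 and interleukin-15, at 314 and 218 CPM, against 38 and 112 CPM in members with neither. Their median number of naive-gene UMIs was 2 in the control and 6 in the Adipo delta/delta library. Dapl1 differed between the libraries in this class, at 26 CPM in the control and 589 CPM in the Adipo delta/delta library, and the rule used that gene.

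In the 105 and 59 members with neither, the naive genes stood at nearly the same level in both libraries. The ratio was 1.13 (0.93 to 1.36) for Tcf7, 1.10 for Satb1, 1.02 for Klf2, 1.07 for Il7r and 0.90 for S1pr1. For the genes of the rule it was 1.03 (0.81 to 1.3) for Ccr7, 0.97 (0.82 to 1.16) for Lef1 and 0.99 (0.84 to 1.16) for Dapl1. Ifi27l2a, induced by interferon, was higher at 1.89 (1.56 to 2.31), Junb, an immediate early transcription factor, at 2.16 (1.64 to 2.86), Ly6c2 at 1.77 (1.39 to 2.26) and Il2rb at 2.98 (1.80 to 5.07).

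**Figure D3:**
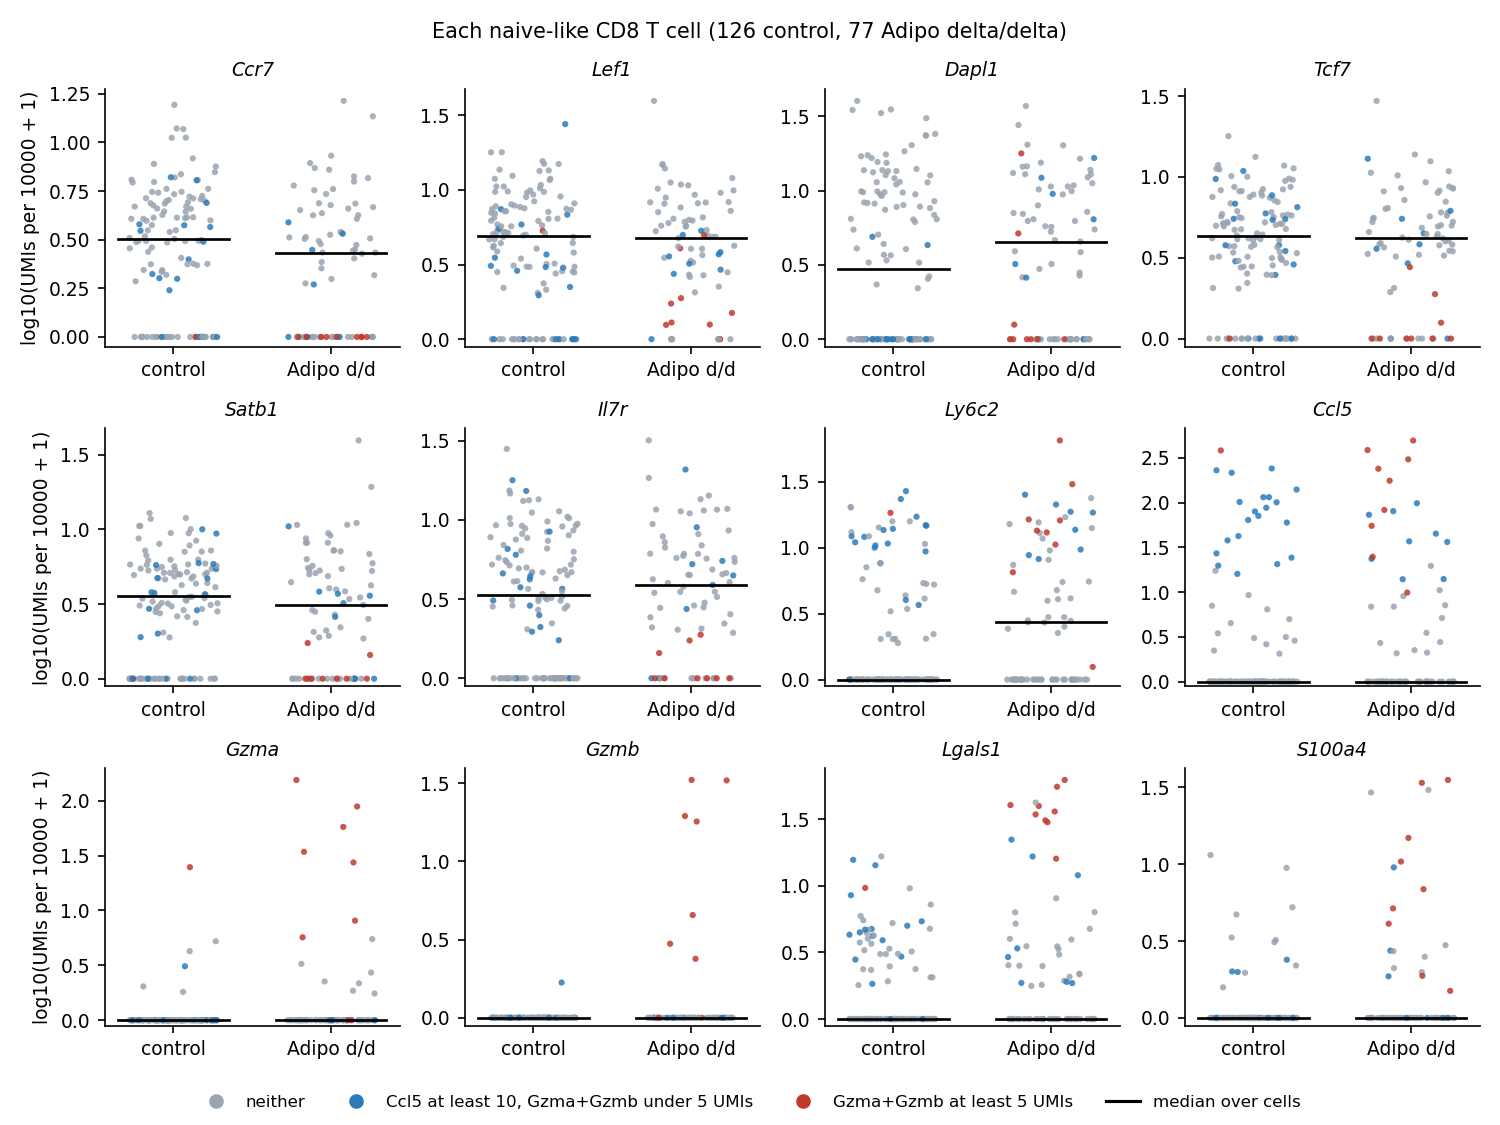
Each point is 1 naive-like CD8 T cell and gives log10 of its UMIs per 10000 UMIs plus 1 for 12 genes, by library, with a colour for granzyme-bearing, Ccl5-bearing and other members and a black line at the median. Granzyme-bearing cells are high in Lgals1 and Ccl5 and carry no Ccr7, and the medians of Tcf7 are close in the 2 libraries.

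Across genes, the summed counts of all members were compared for every gene with at least 30 UMIs. Of 4372 such genes 345 were past 2-fold higher (7.89%) and 35 past 2-fold lower (0.801%) in the Adipo delta/delta members. The median log2 ratio over all these genes was 0.25 and 70.8% of them were higher, a shift of the whole table against which the counts of each list are set. Scaled by the trimmed mean of M values (TMM), which lowers every log2 ratio alike and sets the median at 0.01, 191 genes were past 2-fold higher and 113 lower, so that 62.8% of the genes past 2-fold were higher against 90.8% with scaling by total UMIs. Without the 10 granzyme-bearing members, 3748 genes remained, 80 past 2-fold higher (2.13%) and 52 past 2-fold lower (1.39%), with a median log2 ratio of 0.08 and 60.0% of genes higher.

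Much of the higher side rested on few cells. Of the 345 higher genes, 57 were still past 2-fold without the granzyme-bearing members, 126 were measured and no longer past it, and 162 fell under 30 UMIs. For 175 of the 345 genes at least 50% of their Adipo delta/delta UMIs came from the 9 granzyme-bearing cells. On the lower side 20 of 35 genes were still past 2-fold. Counts with these members left out are given beside each group of genes.

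**Figure D4:**
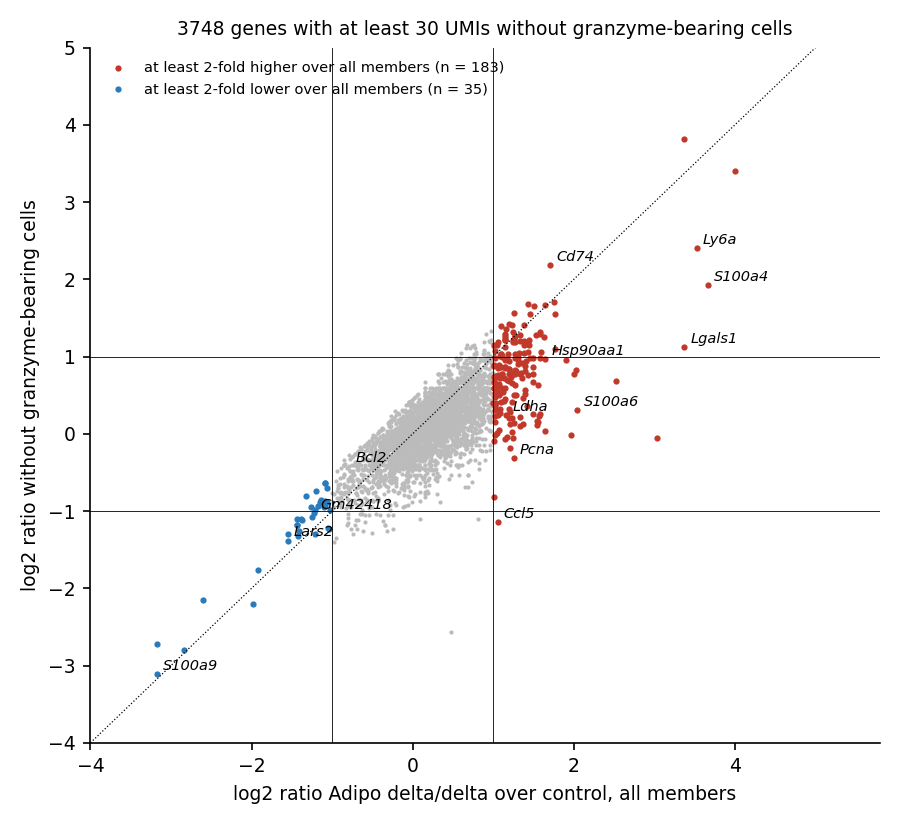
Each point is 1 of 3748 genes, placed by the log2 ratio of Adipo delta/delta over control in all naive-like CD8 T cells (horizontal) and in the members without granzyme-bearing cells (vertical). The 183 genes past 2-fold higher in all members (red) mostly fall below the diagonal, while the 35 lower genes (blue) lie close to it.

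The 12 genes with the largest higher ratio included granzyme genes and genes of dividing cells. Gzma had 17 UMIs in 6 control members and 737 in 14 Adipo delta/delta members, a ratio of 48.1 (29.8 to 83.0), and without the granzyme-bearing cells 6 and 7 UMIs. Gzma and Gzmb define those cells, so the fall of both genes without them was set by the cut. Hist1h1b had 0 and 78 UMIs, at least 28.9-fold higher against a floor of 3 counts, with none left without those cells. Gzmb had 1 and 251 UMIs, a ratio of 279 (49.5 to 11046), Pclaf 1 and 98, a ratio of 109 (19.1 to 4339), and Top2a 1 and 56, a ratio of 62.2 (10.7 to 2498). Stmn1, a microtubule regulator of dividing cells, had 14 and 124 UMIs, a ratio of 9.83 (5.64 to 18.5), but 14 and 6 without the granzyme-bearing cells.

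Others among the 12 were also counted in the remaining members, where single cells carried part of the sums. S100a4 had 27 and 309 UMIs, a ratio of 12.7 (8.56 to 19.6), and 3.82 (2.41 to 6.2) without the granzyme-bearing cells, but 43 of the 68 UMIs left came from 1 cell, without which the ratio was 1.44 (0.804 to 2.59). Lgals1 had 104 and 968 UMIs, a ratio of 10.3 (8.43 to 12.8) and then 2.18 (1.68 to 2.84), but 63 of the 144 UMIs left came from 1 cell, without which the ratio was 1.26 (0.931 to 1.71). Ly6a, an interferon-induced surface protein known as Sca-1, had 8 and 83 UMIs, a ratio of 11.5 (5.58 to 27.6) and then 5.30 (2.35 to 13.5), or 3.84 (1.62 to 10.1) without the Adipo delta/delta cell that held the most. Lgals3 had 5 and 72 UMIs, a ratio of 16.0 (6.54 to 50.7) and then 10.6 (4.14 to 34.7), or 7.72 (2.90 to 25.8) without the top cell, and over the other kept cells of the libraries 2.25. Lmnb1, a lamin, had 7 and 67 UMIs and then 7 and 15, and Zeb2, an effector transcription factor, 4 and 49 and then 1 and 19, 17 of the 19 in 1 cell.

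The 12 genes with the largest lower ratio were led by neutrophil transcripts. S100a9 had 170 UMIs in 51 control members and 17 in 15 Adipo delta/delta members, a ratio of 0.111 (0.0632 to 0.183), and S100a8 127 and 16, a ratio of 0.140 (0.0776 to 0.236). A single control cell held 98 and 70 of those UMIs, and the remainder was 72 and 57 against 15 and 14 without the top cell of each library. In the other kept cells the ratios were 0.322 and 0.316, and S100a8 was carried by 45% and 20.2% of phagocytes beside 36.5% and 19.5% of members. Lars2 had 3430 and 1054 UMIs, a ratio of 0.341 (0.318 to 0.366) with 0.440 in the other cells, and Gm42418 a ratio of 0.429 (0.423 to 0.434) with 0.655 in the other cells. Both are known to hold sequence related to ribosomal RNA, so their reads cannot be told apart from it. Gm15564, Rpl36a-ps1, Klhdc1, Lncpint, Gm20594, Utp14a, Phpt1 and Jakmip1 had ratios from 0.264 to 0.449, and Lncpint, Utp14a and Jakmip1 had 1.04, 1.06 and 1.08 in the other cells.

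Genes of the antigen receptor complex were steady. All 14 genes of the receptor and CD3 list were measured, 13 were higher, beside 70.8% of all genes, and none was past 2-fold. Their median log2 ratio was 0.30 beside 0.25 over all genes, and 0.21 beside 0.08 without the granzyme-bearing cells. Trac, the constant region of the alpha chain, had 295 and 324 UMIs, a ratio of 1.22 (1.04 to 1.43), and Thy1 a ratio of 1.28 (1.08 to 1.51). Trbc2 and Trbc1 had ratios of 1.18 (1.07 to 1.29) and 1.06 (0.936 to 1.21), but these beta chain regions are nearly identical and their reads may be split between them. The list holds the CD3 and CD8 genes of the rule.

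The beta and alpha chain segments did not point to a single clone. UMIs of a Trbv segment were found in 24 control (19.0%) and 16 Adipo delta/delta members (20.8%), over 13 segments in each library, and the most frequent segment was in 4 and 3 cells. UMIs of a Trav segment were found in 13 (10.3%) and 22 members (28.6%), over 16 and 18 segments, with 1 and 3 cells for the most frequent. The 3′ reads cover these segments thinly.

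Of the transcription factors of naive T cells, 11 of 12 were measured, 8 were lower and 3 higher in all members, none past 2-fold. Over all genes 70.8% were higher. The median log2 ratio was -0.23 beside 0.25 over all genes, or 0.02 beside 0.18 from a mean of per-cell CPM. Without the granzyme-bearing cells 10 of the 11 were higher and the median was 0.06, beside 60.0% and 0.08 over all genes. Tcf7 had 312 and 239 UMIs, a ratio of 0.850 (0.715 to 1.01) that became 1.13 (0.951 to 1.35). Satb1 had 274 and 191 UMIs, 0.774 (0.640 to 0.934) and then 1.05 (0.864 to 1.26). Klf2, which keeps S1pr1 switched on, had 680 and 514 UMIs, 0.839 (0.747 to 0.942) and then 1.03 (0.913 to 1.16).

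All 9 recirculation genes were measured, 4 higher and 5 lower, none past 2-fold, with a median of -0.04. Over all genes 70.8% were higher, with a median of 0.25. Without the granzyme-bearing cells 4 of 9 were higher and the median was -0.15, beside 60.0% and 0.08 over all genes. S1pr1 had 186 and 111 UMIs, a ratio of 0.662 (0.519 to 0.842) and then 0.855 (0.667 to 1.09). Selplg, an adhesion ligand, had a ratio of 1.08 (0.902 to 1.28).

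Of 12 measured genes of survival cytokine signalling 8 were higher and 4 lower, beside 70.8% higher over all genes, none past 2-fold, with medians of 0.24 and 0.31 beside 0.25 and 0.08 over all genes. Scaled by TMM the first median was -0.00. Bcl2, which protects naive cells from death, had 265 UMIs in 83 control members and 138 in 47 Adipo delta/delta members, a ratio of 0.578 (0.467 to 0.713), and 0.752 (0.605 to 0.930) without the granzyme-bearing cells, beside 0.817 in the other kept cells. Il7r had 353 and 263 UMIs, 0.827 (0.702 to 0.973) and then 1.12 (0.947 to 1.31).

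Genes of memory and virtual memory were higher in the summed counts. Of the 11 measured genes 7 were past 2-fold higher (Lgals1, S100a6, S100a4, Id2, Cd44, Ccr2 and Eomes) and none lower, with a median of 1.55. Over all genes 7.89% were past 2-fold higher, with a median of 0.25. Without the granzyme-bearing cells 7 genes were measured, Lgals1 and S100a4 were past 2-fold higher, and the median was 0.43. The values over all genes were then 2.13% and 0.08. Neither gene was past 2-fold without the 1 cell that held the most of it. Ly6c2 had 294 and 492 UMIs, a ratio of 1.86 (1.60 to 2.15) and then 1.35 (1.13 to 1.60), and S100a6 a ratio of 4.13 (3.45 to 4.97) and then 1.24 (0.969 to 1.58), or 0.653 (0.480 to 0.879) without the 1 cell that held 61 of its UMIs.

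The cytotoxic list turned with the granzyme-bearing cells. It holds Gzma and Gzmb, which define those cells, so that part of the turn was set by the cut. Of 11 measured genes 5 were past 2-fold higher (Ccl5, Gzma, Gzmb, Gzmk and Zeb2), beside 7.89% of all genes. Their median was 0.74 beside 0.25 over all genes. Without the granzyme-bearing cells 7 genes were measured, none past 2-fold higher and Ccl5 and Klrk1 past 2-fold lower, with a median of -0.13. Over all genes 2.13% were then past 2-fold higher and 1.39% past 2-fold lower, with a median of 0.08. Ccl5 had 1397 UMIs in 34 control members and 2614 in 31 Adipo delta/delta members, a ratio of 2.08 (1.95 to 2.22), but 1221 and 364 UMIs without the granzyme-bearing cells, a ratio of 0.452 (0.401 to 0.508). Nkg7 had a ratio of 1.46 (1.3 to 1.65) and then 0.973 (0.843 to 1.12). Gzmk had 0 and 33 UMIs, at least 12.2-fold higher against the floor of 3 counts, all 33 in granzyme-bearing cells.

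Residency genes were few. Of 4 measured genes Cxcr6 and Rgs1 were past 2-fold higher and Itgae past 2-fold lower, beside 7.89% and 0.801% of all genes. Their median was 0.64 beside 0.25 over all genes. Without the granzyme-bearing cells the median was -0.06 over the 3 genes still at 30 UMIs and 0.12 over the same 4 genes. The median over all genes was then 0.08. Itgae, the integrin that holds T cells in epithelia, had 33 and 13 UMIs, a ratio of 0.437 (0.211 to 0.853) and 0.597 (0.288 to 1.16) without the granzyme-bearing cells, but a log2 value of 0.40 in the other direction as a mean of per-cell CPM. Rgs1 had 6 and 24 UMIs, a ratio of 4.44 (1.77 to 13.3), with 4.26 in the other kept cells. Of 15 activation and checkpoint genes 3 were measured: Cd160 with 8 and 42 UMIs and Icos with 16 and 32 were past 2-fold higher, and Tox had 25 and 18. The median of the 3 was 1.15 beside 0.25 over all genes, of which 7.89% were past 2-fold higher. Without the granzyme-bearing cells 2 were measured, with a median of 0.55 beside 0.08 over all genes. Cd160 then fell under 30 UMIs with 8 and 8. Icos then had a ratio of 2.37 (1.22 to 4.75), or 1.85 (0.903 to 3.85) without the Adipo delta/delta cell that held the most.

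Cell cycle genes were higher through the granzyme-bearing cells. Of 9 measured genes 8 were past 2-fold higher, beside 7.89% of all genes, and the median was 2.59 beside 0.25 over all genes. Without those cells 3 remained, none past 2-fold, with a median of -0.18 beside 0.08 over all genes. Mki67 had 0 and 37 UMIs and Birc5 0 and 31, at least 13.7-fold and 11.5-fold higher against the floor of 3 counts, with none in the other members. Pcna had 47 and 101 UMIs, a ratio of 2.38 (1.67 to 3.45) and then 0.806 (0.475 to 1.34).

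Interferon and early response genes were also higher without the granzyme-bearing cells. Of 13 measured interferon-stimulated genes 11 were higher, beside 70.8% of all genes. Ifi27l2a, Ly6a, Isg15 and Xaf1 were past 2-fold higher, beside 7.89% of all genes. The median was 0.51 beside 0.25 over all genes. Without the granzyme-bearing cells it was 0.39 with 9 of 11 higher, beside 0.08 and 60.0% over all genes. Scaled by TMM the first median was 0.26, beside 0.01 over all genes. Ifi27l2a had 205 UMIs in 66 control members and 377 in 56 Adipo delta/delta members, a ratio of 2.04 (1.72 to 2.43) and then 1.97 (1.64 to 2.38), with 1.20 in the other kept cells. Isg15 had 16 and 30 UMIs and then 16 and 12.

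Of 14 measured immediate early and stress genes 11 were higher, beside 70.8% of all genes, with medians of 0.57 and 0.58 beside 0.25 and 0.08 over all genes. Junb had 114 and 179 UMIs, a ratio of 1.74 (1.37 to 2.22) and then 1.87 (1.45 to 2.42), and Fos 15 and 37 UMIs, 2.74 (1.47 to 5.37) and then 2.93 (1.52 to 5.88), while both stood near 0.81 in the other kept cells. Hsp90aa1, a heat shock chaperone, had 113 and 318 UMIs, a ratio of 3.12 (2.51 to 3.91) and then 1.96 (1.52 to 2.53), but 1.99 in the other cells. Hspa1b went the other way, with 27 and 4 UMIs, a ratio of 0.164 (0.0418 to 0.472), and 1.95 in the other cells. Enzymatic digestion of tissue is known to switch on genes of this list, and its part in the values was not tested.

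Of the 15 genes of MHC class I presentation 14 were higher, beside 70.8% of all genes, and none was past 2-fold. Their medians were 0.36 and 0.25, beside 0.25 and 0.08 over all genes. Scaled by TMM the first median was 0.12, beside 0.01 over all genes. B2m, the light chain, had 1467 and 1490 UMIs, a ratio of 1.13 (1.05 to 1.21), with 1.11 in the other cells. H2-K1 had a ratio of 1.19 (1.10 to 1.3), with 1.14 in the other cells.

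Metabolic genes had smaller ratios once the granzyme-bearing cells were left out. Of 11 measured glycolysis genes Ldha, Pfkp and Tpi1 were past 2-fold higher, beside 7.89% of all genes. The median was 0.65 and then 0.02 with none past 2-fold, beside 0.25 and 0.08 over all genes. Ldha, lactate dehydrogenase, had 129 and 260 UMIs, a ratio of 2.24 (1.80 to 2.78) and then 1.19 (0.905 to 1.55). Of 10 fatty acid oxidation genes Etfb and Acadl were past 2-fold higher, beside 7.89% of all genes. The medians were 0.23 and 0.13, beside 0.25 and 0.08 over all genes, and the first was -0.02 with TMM scaling. Hadha, of the mitochondrial trifunctional protein, had 38 and 52 UMIs, a ratio of 1.52 (0.981 to 2.37).

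Among genes of lipid uptake and lipolysis 3 of 14 were measured, with medians of 0.71 and 1.11, beside 0.25 and 0.08 over all genes. Lpl, the lipase that releases fatty acids from lipoproteins, had 3 UMIs in 2 control members and 28 in 11 Adipo delta/delta members, a ratio of 10.4 (3.20 to 53.2), none of the 28 in a granzyme-bearing cell and 18 of them in 1 cell. In the other kept cells of the libraries its ratio was 13.2. Pnpla2, the gene deleted in the adipocytes, had 17 and 22 UMIs in the members, a ratio of 1.44 (0.728 to 2.88), and that count checks the T cells and not the deletion. Lipa, the lysosomal acid lipase, had 19 and 28 UMIs, a ratio of 1.64 (0.881 to 3.10).

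Ribosomal protein genes were 22 higher and 58 lower of 80 measured, with a median of -0.09. Over all genes 70.8% were higher, with a median of 0.25. Without the granzyme-bearing cells 61 of 80 were higher with a median of 0.08, beside 60.0% and 0.08 over all genes. Rpl9 alone was past 2-fold higher in all members, with 237 and 479 UMIs, and it has near-identical copies that can share reads. The 13 mitochondrial genome genes had medians of -0.06 and 0.10, beside 0.25 and 0.08 over all genes. From a mean of per-cell CPM the median in all members was 0.15, beside 0.18 over all genes. The ratio of mt-Co3 was 1.08 (1.04 to 1.12), with 1.40 in the other cells.

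**Figure D5:**
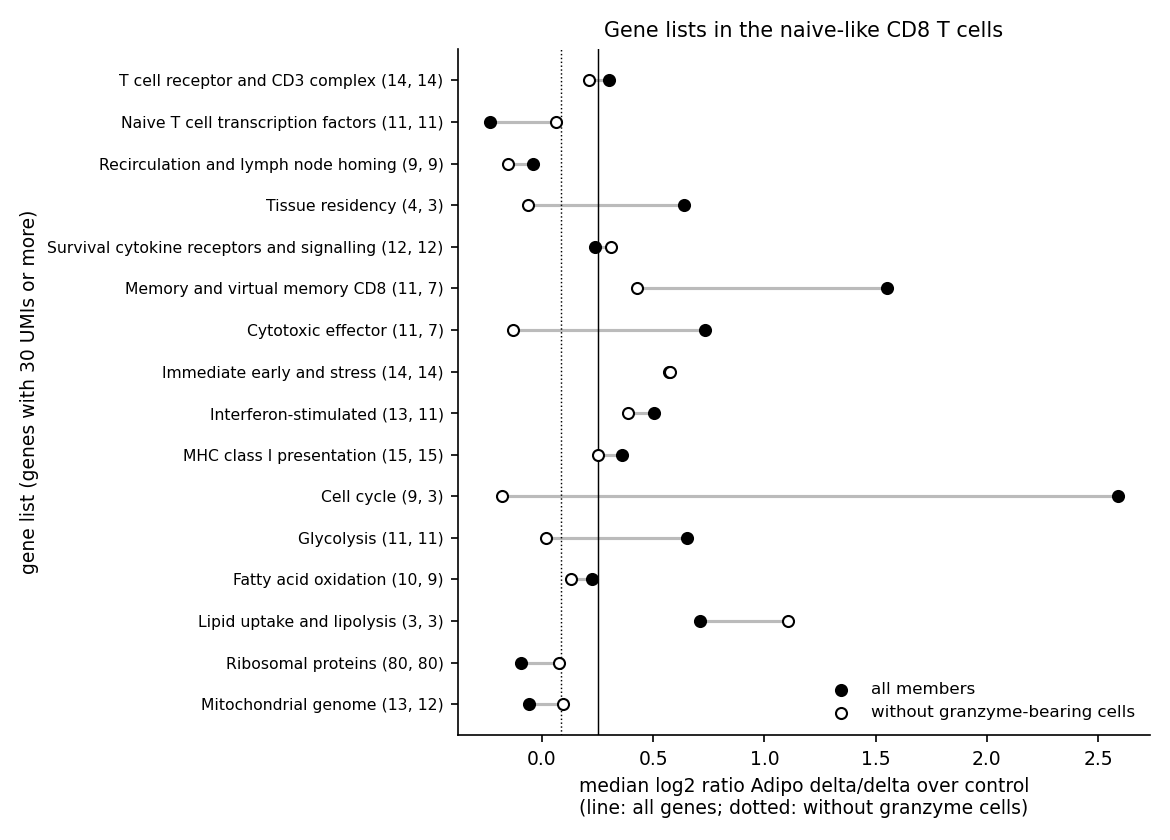
Median log2 ratio of Adipo delta/delta over control (horizontal) for the measured genes of 16 lists, for all naive-like CD8 T cells (filled) and without granzyme-bearing cells (open), with the number of genes measured in each in brackets and lines at the medians over all genes. The cell cycle median moves from 2.59 to -0.18 and the cytotoxic median from 0.74 to -0.13, while the immediate early and stress median stays at 0.57 and 0.58. The cytotoxic list holds Gzma and Gzmb, which define the cells left out.

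Transcripts of other cell types were counted in the members as sums over fixed marker lists. Neutrophil markers summed to 417 CPM in control and 48.7 CPM in Adipo delta/delta members, beside 28010 and 9231 CPM in the other kept cells. Of the 7 genes 1 and 3 were at 0, Retnlg among the 3 with 30 UMIs and 0. A single control cell held 26 of those 30 UMIs. In the control, 98 of the 170 S100a9 and 70 of the 127 S100a8 UMIs also came from 1 cell. Much of the control sum therefore rests on single cells. Macrophage markers summed to 252 and 416 CPM beside 21739 and 26608 CPM, with 2 and 0 of 14 genes at 0. Cd74 of that list, which B cells and dendritic cells also make, had 17 and 50 UMIs, a ratio of 3.26 (1.85 to 6.04) with 2.32 in the other cells. B cell markers summed to 199 and 228 CPM beside 10117 and 6308 CPM, with 2 and 4 of 9 genes at 0.

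NK cell markers summed to 71.4 and 68.1 CPM, with 0 and 2 of 8 genes at 0, and CD4 and regulatory T cell markers to 21.3 and 18.1 CPM, with 5 and 2 of 7 at 0. Gamma-delta and innate-like markers summed to 48.9 and 2.78 CPM, with 4 and 7 of 9 at 0. Adipocyte transcripts summed to 26.3 and 4.17 CPM, with 6 and 8 of 10 at 0, Adipoq and Ucp1 among them. Erythroid transcripts summed to 35.1 and 2.78 CPM beside 1177 and 9.34 CPM in the other cells, with 1 and 4 of 5 at 0. The part of this free or carried RNA in the ratios above was not tested.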

How the data were processed

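Cells were sorted by the authors as living CD45+ cells of brown adipose tissue and captured in droplets with a 3′ gene expression kit. The deposited matrices hold raw UMI counts per gene and barcode, made by the authors with Cell Ranger 4.0.0 (named in the file headers), and the submitters' processing notes name Seurat and the build mm10. Positions are from GENCODE M21 (GRCm38).

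The counts were used as deposited, with Python 3.11.15, NumPy 2.4.6, SciPy 1.17.1, pandas 2.3.3 and matplotlib 3.10.9. Members were summed per library and divided by their total UMIs. Genes needed at least 30 UMIs over both sums. With 1 library per group no test was run. Shares have Clopper-Pearson intervals, sums Poisson intervals and ratios conditional binomial intervals, all 95% and covering counting error only. A gene at 0 in a library was set against a floor of 3 counts per library. Depth limited the low genes, as the member sums held 798202 and 719198 UMIs. For shares of cells carrying a gene, cells were also thinned to 1500 UMIs. Other T cells were chosen by the same CD3 limit, and phagocytes by 2 or more Csf1r UMIs. TMM factors came from edgeR 4.0.16 in R 4.3.3 as an alternative scaling only.

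Named genes were the 12 largest ratios in each direction among genes with at least 50 UMIs, the 4 highest genes of each list plus those past 2-fold, and the 15 largest in each direction against other T cells, and some of these are not reported here. Members, lists and rules were chosen with earlier results of these data known. The limits of 5 UMIs of Gzma and Gzmb together and 10 of Ccl5, and the total without Gm42418, AY036118, Lars2 and Gm26917, and leaving out the single cell with the most UMIs of a gene among members without granzyme-bearing cells, were chosen after seeing the data. The scripts were tested on simulated data. No doublets were removed here.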

Additional observations from a re-analysis of the deposited data

How the results depend on the processing

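No paired analysis was possible because each condition has 1 library and both carry the same replicate number. Shares of members moved with the cells counted: 2.14% and 1.12% (control, Adipo delta/delta) at a mitochondrial limit of 2%, 3.68% and 2.85% after thinning, 9.06% and 7.51% of cells without Csf1r, and 36.7% and 31.7% of T cells. Genes past 2-fold were 191 higher and 113 lower with TMM, 71 lower by mean per-cell CPM, 58 and 7 at 100 UMIs, 924 and 283 at 10 UMIs, 171 higher with 2 or more naive UMIs, 200 higher without the top cell of each gene, 116 higher without members above the 95th percentile of depth, and 80 higher without granzyme-bearing members. Directions reversed for Itgae by mean per-cell CPM (log2 0.40), for Etfb (-0.699), Mcm3 (-0.16), Mcm6 (-0.40), Pcna (-0.29), Stmn1 (-0.27) and the cell cycle median (-0.16) without the deepest members, and for Ccl5 (-1.15), Cxcr6 (-0.064), Etfb (-0.82), Mcm3 (-0.40), Mcm6 (-0.18), Pcna (-0.31), Stmn1 (-0.62) and the cell cycle median (-0.18) without granzyme-bearing members. No named gene past 2-fold reversed with TMM (28 of all 113 named genes moved by more than counting error), with totals that left out ribosomal protein and mitochondrial genes (5 moved) or at a mitochondrial limit of 5% (8 moved). Genes of few UMIs have wide intervals, and the depth of the libraries cannot show differences inside them.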

Other observations

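Single cells carried a few of the sums. A control member held 20 of the 22 UMIs of Trdc, the constant region of the delta chain of the gamma-delta receptor, and no Cd8b1. An Adipo delta/delta member outside the granzyme-bearing and Ccl5-bearing cells held 43 UMIs of S100a4, 61 of S100a6 and 63 of Lgals1 among 15257 UMIs. These cells met every condition of the rule and were kept.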
